A study of Mus musculus with 12 samples.

Results

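The genes described here belong to the machinery of ER-associated protein degradation (ERAD) and of its ATPase p97. They were given as a list of 42 symbols that left out the ERAD genes shown in the study's own heatmap, and a symbol counted as read where it held 10 or more placed counts over all libraries. Of the 42 symbols, 14 were read, out of 5906 genes with 10 or more placed counts in the whole series. Placed counts are the deposited read-pair counts of those entries of the table whose printed exon positions overlay exons of exactly 1 gene of the mouse genome build GRCm38 by at least 50 bp. Bulk RNA-Seq was available for 12 libraries of splenic mouse T cells in 4 groups of 3. Both genotypes, WT and PERK-cKO, were studied after allogeneic stimulation with antigen-presenting cells (APCs) of another strain and a harvest on day 4, and after polyclonal stimulation by antibodies to CD3 and CD28 and a harvest on day 3. PERK-cKO mice carry floxed alleles of PERK, encoded by Eif2ak3, and Cre driven by the CD4 promoter, which deletes the gene in T cells, and the labels call them PERK-KO. The legend of the study's RNA-Seq heatmap names 4 days for both stimulations, whereas legends of its other experiments name 3 days for the antibodies, so the day of harvest is uncertain for polyclonal stimulation. No age or APC strain was given for these libraries in the sources used here. Nothing in the labels says that the 3 libraries of a group came from separate mice, so p-values measure the spread between these libraries, which may be technical.

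ERAD removes proteins that fail to fold in the endoplasmic reticulum. Mannose trimming and chaperones mark such a protein, membrane ligases and their ubiquitin-conjugating enzymes (E2 enzymes) ubiquitinate it as it leaves the ER, and the p97 ATPase with its cofactors pulls it into the cytosol for the proteasome. PERK is a sensor of the unfolded protein response (UPR), which runs beside ERAD when unfolded proteins accumulate. Activated T cells enlarge their secretory apparatus, which loads the ER with newly made protein.

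The 14 genes read were the E2 enzyme genes Ube2j1, Ube2j2, Ube2g1, Ube2g2 and Ube2k, the ligase gene March6 (also Marchf6), the p97 cofactor genes Nploc4, Ubxn4, Ubxn6 and Faf1, the derlin gene Derl1, the chaperone gene Sgta and the mannosidase genes Man1a and Man1a2. Of the other symbols, Ancr and Syvn1os were in no gene model of GENCODE M21, and Vimp is an older symbol of Selenos. The remaining 25 genes had no placed entry. Of these, 11 lay under entries that also overlay other genes or overlay too few bases (Derl3, Vcp, Faf2, Ubqln1, Aup1, Rnf185, Rnf5, Erlin1, Bag6, Ubl4a and Usp19). The other 14 lay under no entry (Herpud1, Herpud2, Ufd1, Ubqln2, Ngly1, Rnf139, Tmem129, Selenos, Selenok, Erlin2, Get4, Yod1, Jkamp and Bcap31), and their level was not read here.

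The share of a gene that the counts rested on differed widely. The entries covered 100% of the exon length of Ube2j1 (3530 bp), 69% of March6 and 63.5% of Ube2g1, but 11.2% of Ubxn4, 8.54% of Nploc4, 1.93% of Man1a2 and 1.01% of Man1a. In 4 genes (Ube2j1, March6, Ube2g1 and Man1a2) at least 50% of the entry itself lay inside exons of the gene. In the others most of the entry lay outside the exons, so that its count can hold reads from introns or from sequence between genes. Derl1 had 39 counts over all libraries and Ube2g2 had 37, with 0 to 8 counts per library, and neither passed the filter on low counts. A library with 0 counts of a gene could still hold up to 3 counts by chance of sampling, and such limits cover counting error only. The other 12 genes, with 394 to 17759 counts, were tested in every comparison.

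**Figure D1:**
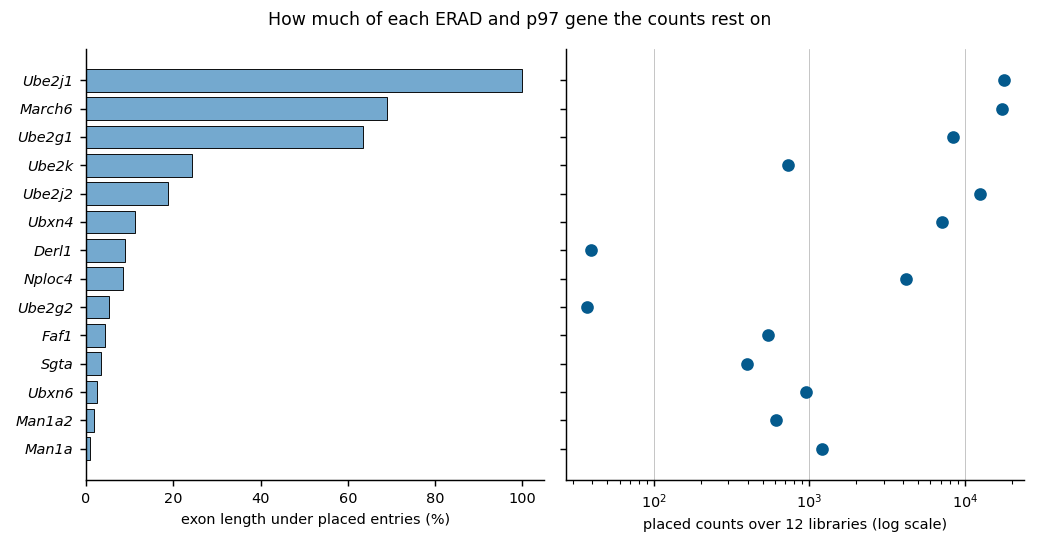
The left panel gives the percentage of each gene's exon length that lay under placed entries, and the right panel gives its placed counts summed over the 12 libraries on a log scale. Ube2j1 was covered whole and March6 to 69%, whereas Man1a2 and Man1a were read from 1.93% and 1.01% of their exons, and Derl1 and Ube2g2 held 39 and 37 counts.

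For 3 genes a coding exon stretch under a counted entry is shown because each result rests on so short a part of the gene. The Man1a2 stretch (154 bp, GRCm38 chr3:100587718-100587871, minus strand) lies in exon 10 of 13. The Nploc4 stretch (150 bp, chr11:120382477-120382626, minus strand) lies in the last of 16 exons and belongs to the entry with 2977 of its 4211 counts. The Ubxn4 stretch (94 bp, chr1:128259444-128259537, plus strand) is exon 6 of 13 and 1 of 4 stretches of Ubxn4 exons under that entry. These bases are from GENCODE M21 transcripts, written 5′ to 3′ in the sense of the transcript.
Man1a2 stretch: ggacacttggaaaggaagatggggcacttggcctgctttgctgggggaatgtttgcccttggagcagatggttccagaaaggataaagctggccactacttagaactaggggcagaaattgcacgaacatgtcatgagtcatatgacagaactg
Nploc4 stretch: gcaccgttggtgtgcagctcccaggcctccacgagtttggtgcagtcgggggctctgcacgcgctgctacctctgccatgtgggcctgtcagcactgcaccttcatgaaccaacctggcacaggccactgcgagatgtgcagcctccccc
Ubxn4 stretch: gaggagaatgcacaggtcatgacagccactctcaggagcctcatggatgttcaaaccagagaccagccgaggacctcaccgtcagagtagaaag

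Promoters of 11 of the 14 genes were found in RefSeq (GRCm38.p6), with 15 start sites, and the 250 bases before each start were searched on both strands for motifs of the UPR. The motifs were UPRE (TGACGTGG) and the C/EBP-ATF element (TGATGNAA), which do not overlap each other and are held by 0.563% and 3.45% of the 32851 RefSeq start sites. The only match was a UPRE before Ube2j1, at bases -68 to -61 counted from the start site, on the opposite strand. The capitals in the Ube2j1 promoter (chr4:33031130-33031379, plus strand) mark it, and a match of letters is a description and not a measured binding site.
Ube2j1 promoter: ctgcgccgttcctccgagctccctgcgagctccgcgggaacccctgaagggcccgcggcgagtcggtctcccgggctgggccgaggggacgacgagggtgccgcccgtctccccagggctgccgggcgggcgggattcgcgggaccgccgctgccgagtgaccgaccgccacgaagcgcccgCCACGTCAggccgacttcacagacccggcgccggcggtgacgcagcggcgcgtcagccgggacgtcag

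Total counts were 3132702 to 4631908 per library, and 50.4% of all counts were placed. In the WT polyclonal group, replicate 1 stood apart: its counts differed from the others with a chi-square per degree of freedom of 48.3 and 54.6, against 9.45 between the other two, and results that change without it are given below. Eif2ak3, read from 9.34% of its exons, was 66.4, 70.3 and 73.6 CPM (counts per 1000000 placed counts) in PERK-cKO and 106, 98.1 and 91.3 in WT T cells after allogeneic stimulation. It was 51, 45.3 and 47.2 against 79.8, 58.7 and 44.1 after polyclonal stimulation, where the genotypes overlapped. Whether the counted exons lie in the deleted part was not checked, so these values do not test the deletion. The allogeneic cultures were set up with APCs, and markers of cells other than T cells were counted. Summed CPM of the 4 basophil and mast cell markers placed (of 6: Fcer1a, Ms4a2, Gata2 and Prss34) was 2612 to 2804 in PERK-cKO and 120 to 133 in WT after allogeneic stimulation, and 16.3 to 23.8 (37 to 40 counts) against 1.04 to 2.49 (2 to 5 counts) after polyclonal stimulation, without overlap in either. For the 2 macrophage markers placed of 12 (Lyz2 and Mrc1) it was 854 to 1064 against 45.3 to 60.8 after allogeneic and 0 to 1.19 against 0 to 0.525 after polyclonal stimulation. For the B cell marker Ms4a1, 1 of 8, it was 140 to 165 against 51.4 to 68.6 and then 4.17 to 11 against 3.68 to 4.98. The 3 dendritic cell markers placed of 6 (Itgax, Flt3 and Zbtb46) summed to 45.4 to 61.4 against 1.76 to 7.92 and then to 5.64 to 7.15 against 7.88 to 9.95. The 6 T cell markers placed of 14 summed to 5435 to 6018 in PERK-cKO and 6185 to 6311 in WT after allogeneic stimulation, and to 5202 to 5540 and 3988 to 4178 after polyclonal stimulation. Y-linked genes (4) gave 3335 to 4716 counts in each of the 3 allogeneic WT libraries and 0 in each of the other 9, so sex cannot be told apart from genotype after allogeneic stimulation. In bulk RNA, fewer cells of a type and less RNA per cell cannot be told apart.

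After polyclonal stimulation, 4 of the 12 ERAD and p97 genes were called, all higher in PERK-cKO T cells: Man1a2, Ube2j2, Ubxn4 and Nploc4, or 1 higher and 4 lower when libraries were scaled to T cell markers, where 45.6% of all genes were called. A gene was called where edgeR's Benjamini-Hochberg adjusted p over all genes tested was under 0.05. In the same comparison, 31.8% of 3937 genes were called, 16% higher and 15.8% lower, so the number called among the 12 genes was near the background. Their median log2 fold change was 0.17, against 0.00 for all genes. After allogeneic stimulation, 2 of 12 were called, Ube2k and Ubxn4, both higher in PERK-cKO T cells, where 33% of 4093 genes were called, 18.5% higher. The same 2 were called when scaled to T cell markers, where 30.2% of all genes were. The median of the 12 genes was -0.04, against -0.02 for all genes. The test of the difference between the genotype effects, the interaction, called 4 of 12 where 33.9% of 4402 genes were called: Man1a2, Ube2j2 and Ube2j1 had a lower PERK-cKO to WT ratio after allogeneic than after polyclonal stimulation and Ube2k a higher one, or 6 higher and 1 lower when scaled to T cell markers, where 42.1% of all genes were called.

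Scaling to the summed T cell markers, of which Thy1 made up 64.2%, moved the median log2 fold change over all genes tested. It was 0.11 for PERK-cKO against WT after allogeneic stimulation, -0.38 after polyclonal stimulation and 0.54 for the interaction. For allogeneic against polyclonal stimulation it was -0.60 in WT and -0.09 in PERK-cKO T cells. Such scaling moves the values of all genes by nearly the same amount. Relative to that shift, each of the 23 calls of these genes was therefore within 0.02 of its TMM value, which is no separate evidence for it. As fitted under T cell marker scaling, 9 of the 23 reversed in sign and 5 kept their sign but were not called. The directions given here are relative to the bulk of the genes. The comparisons of genotypes and of stimulations were made on the same 12 libraries and are not independent of each other.

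**Figure D2:**
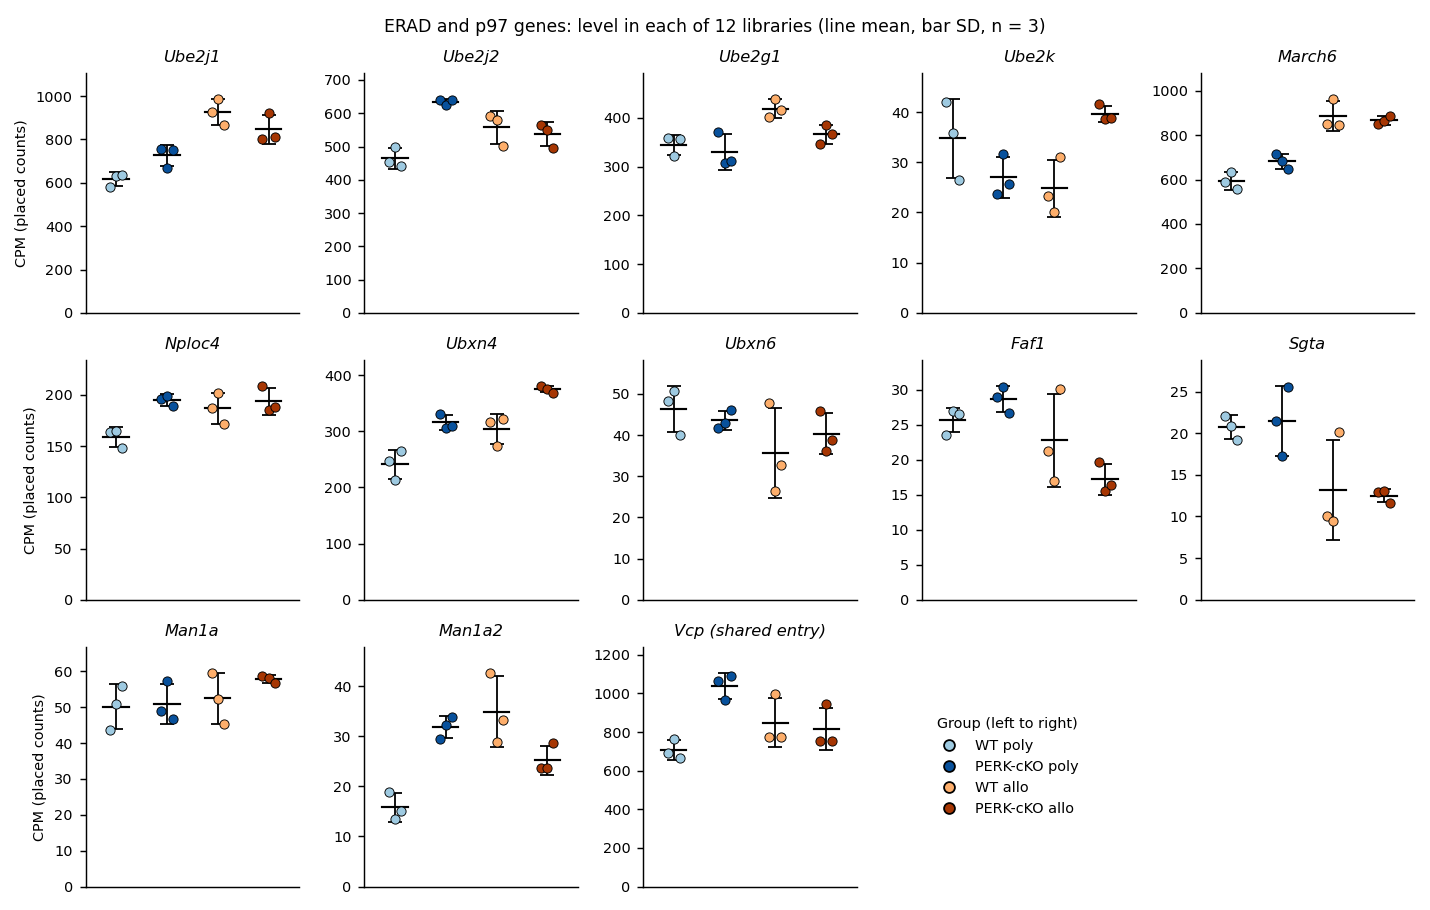
Each panel gives 1 gene in CPM of placed counts, with 1 point per library, the mean as a line and the SD as a bar (n = 3), for WT polyclonal, PERK-cKO polyclonal, WT allogeneic and PERK-cKO allogeneic libraries from left to right. The PERK-cKO polyclonal points lie above all WT polyclonal points for Ube2j1, Ube2j2, March6, Ubxn4, Nploc4, Man1a2 and Vcp, whose entry also overlay another gene, and CPM here is scaled by TMM.

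**Figure D3:**
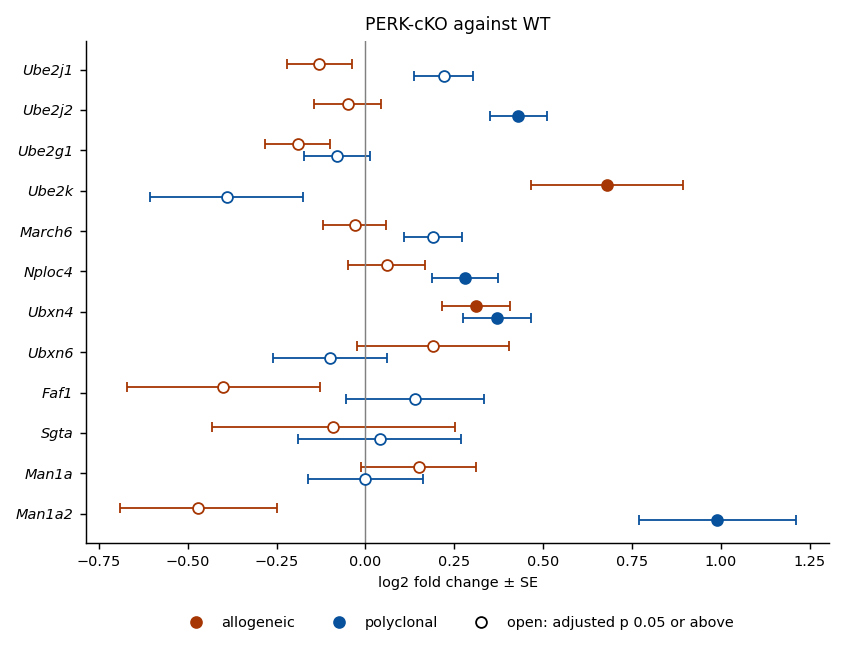
The log2 fold change of PERK-cKO against WT is shown with its SE for 12 genes after allogeneic and polyclonal stimulation, with filled points where the adjusted p was under 0.05. Under TMM scaling only Ubxn4 has filled points for both stimulations, and scaled to T cell markers its polyclonal value was -0.01.

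Among the E2 enzymes, Ube2j1 and Ube2j2 are both anchored in the ER membrane. Ube2j1, which serves the SEL1L-HRD1 ligase, was read whole. It was 803, 923 and 813 CPM in PERK-cKO and 927, 987 and 865 CPM in WT T cells after allogeneic stimulation, and the genotypes overlapped. After polyclonal stimulation it was 758, 670 and 750 CPM in PERK-cKO and 579, 633 and 636 CPM in WT T cells, with every PERK-cKO library above every WT library. The log2 fold change of PERK-cKO against WT was -0.13 (SE 0.0914, edgeR adjusted p = 0.325) after allogeneic and 0.22 (SE 0.0824, edgeR adjusted p = 0.0516) after polyclonal stimulation. The interaction was -0.37 (SE 0.122, edgeR adjusted p = 0.0232). It was not called without PERK-cKO allogeneic replicate 1 or 3, WT allogeneic replicate 1 or 2, PERK-cKO polyclonal replicate 3 or WT polyclonal replicate 1 or 2 (edgeR adjusted p 0.0501 to 0.093). It was also not called by DESeq2 (adjusted p = 0.0525), nor by edgeR with RLE size factors (0.0506), with library size only (0.0671), with 10 counts required in every library (0.088) or with entries as listed (0.0646). Between stimulations Ube2j1 was higher after allogeneic stimulation in WT T cells by 0.56 (SE 0.082, edgeR adjusted p = 9.9e-05) and in PERK-cKO T cells by 0.22 (SE 0.0883, edgeR adjusted p = 0.0455). The second call was lost without PERK-cKO allogeneic replicate 2 or PERK-cKO polyclonal replicate 2 or 3 (edgeR adjusted p 0.0807 to 0.217), and with library size only (0.127), without a filter (0.0933), with the replicate block (0.0853) and with entries at least 50% inside the exons (0.0721). When scaled to T cell markers, the interaction was 0.16, the WT value -0.03 and the PERK-cKO value 0.13 (edgeR adjusted p = 0.258).

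Ube2j2, a second membrane-anchored E2 enzyme, was read from 3 entries over 18.7% of its exons. After polyclonal stimulation it was 639, 625 and 640 CPM in PERK-cKO T cells and 454, 499 and 440 CPM in WT T cells. The groups lay far apart relative to their spread, and the log2 fold change was 0.43 (SE 0.0806, edgeR adjusted p = 0.000754). After allogeneic stimulation it was 566, 551 and 496 CPM in PERK-cKO and 592, 581 and 502 CPM in WT T cells, and the fold change was -0.05 on the log2 scale (SE 0.0939, edgeR adjusted p = 0.736). The interaction was -0.50 (SE 0.123, edgeR adjusted p = 0.00287), and it was called without any 1 library as well. Each of the 3 entries had a higher polyclonal mean in PERK-cKO than in WT T cells, by 0.36, 0.17 and 0.58 on the log2 scale. In the same order, only 17.8%, 4.13% and 2.74% of these entries lay inside Ube2j2 exons. Between stimulations, Ube2j2 was higher after allogeneic stimulation in WT T cells by 0.23 (SE 0.0874, edgeR adjusted p = 0.0421) and lower in PERK-cKO T cells, at -0.24 (SE 0.0844, edgeR adjusted p = 0.0244). The WT call was lost without WT allogeneic replicate 1 or 2 or WT polyclonal replicate 1 or 3 (edgeR adjusted p 0.114 to 0.14), and the PERK-cKO call without PERK-cKO allogeneic replicate 3 or PERK-cKO polyclonal replicate 2 or 3 (edgeR adjusted p 0.0531 to 0.162). DESeq2 called neither (adjusted p 0.0709 and 0.0577), nor did edgeR with 10 counts required in every library (0.057 and 0.0582), and the WT call was also lost with library size only (0.178). Scaled to T cell markers, the values were 0.06 for polyclonal stimulation, 0.02 for the interaction and -0.35 for WT T cells. The entry deposited under the symbol Ube2j2, which overlay no Ube2j2 exon in GRCm38, gave -0.24, 0.12 and -0.52 in the same order.

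Ube2g1 encodes a soluble E2 enzyme. It was 346, 385 and 368 CPM in PERK-cKO and 401, 439 and 416 CPM in WT allogeneic cultures. The PERK-cKO libraries lay below all WT libraries, but at -0.19 (SE 0.0912, edgeR adjusted p = 0.119) the difference was not called. After polyclonal stimulation the genotypes overlapped, at 372, 308 and 311 CPM in PERK-cKO and 358, 322 and 356 CPM in WT T cells, and the value was -0.08 (SE 0.0941, edgeR adjusted p = 0.583). The interaction was -0.13 (SE 0.13, edgeR adjusted p = 0.476). Scaled to T cell markers both were called, at -0.46 for polyclonal stimulation (edgeR adjusted p = 0.00141) and 0.40 for the interaction (0.0216). Ube2g1 was higher after allogeneic than after polyclonal stimulation in WT T cells, by 0.25 (SE 0.0849, edgeR adjusted p = 0.0285). That call was lost without WT allogeneic replicate 2 or 3 or WT polyclonal replicate 1 or 2 (edgeR adjusted p 0.0525 to 0.132), by DESeq2 (0.0519), with library size only (0.136) and with entries at least 50% inside the exons (0.0727), and the value was -0.34 when scaled to T cell markers. In PERK-cKO T cells it was 0.15 (SE 0.0964, edgeR adjusted p = 0.221).

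Ube2k encodes an E2 enzyme that builds ubiquitin chains in the cytosol. After allogeneic stimulation it was 41.6, 38.7 and 38.9 CPM in PERK-cKO and 23.2, 20 and 31.1 CPM in WT T cells, from 34 to 97 counts per library. All PERK-cKO libraries lay above all WT libraries, with a log2 fold change of 0.68 (SE 0.213, edgeR adjusted p = 0.0167). After polyclonal stimulation it was 23.7, 31.6 and 25.6 CPM in PERK-cKO and 42, 35.8 and 26.5 CPM in WT T cells, which overlapped. The polyclonal log2 fold change was -0.39 (SE 0.215, edgeR adjusted p = 0.189), or -0.77 when scaled to T cell markers (edgeR adjusted p = 0.0118). The interaction, 1.05 (SE 0.298, edgeR adjusted p = 0.00839), was called also without any 1 library. The allogeneic call was lost without PERK-cKO allogeneic replicate 1 (0.64, edgeR adjusted p = 0.0526) and without WT allogeneic replicate 2 (0.54, edgeR adjusted p = 0.0874). Ube2k was higher after allogeneic stimulation in PERK-cKO T cells by 0.57 (SE 0.193, edgeR adjusted p = 0.0194), a call lost without PERK-cKO allogeneic replicate 1 or PERK-cKO polyclonal replicate 1 or 3 (edgeR adjusted p 0.0556 to 0.0726) and when scaled to T cell markers (0.0579). In WT T cells the value was -0.51 (SE 0.233, edgeR adjusted p = 0.088), or -1.10 when scaled to T cell markers (edgeR adjusted p = 0.00113). The 2 entries of Ube2k, with 620 and 108 counts, did not move alike. The means of the larger differed between PERK-cKO and WT T cells by 0.78 after allogeneic and -0.41 after polyclonal stimulation on the log2 scale, and those of the smaller by 0.34 and 0.08. Between stimulations the larger differed by -0.79 and the smaller by 1.29 in WT T cells, and by 0.39 and 1.55 in PERK-cKO T cells, with 15 to 45 counts per group behind the smaller. Of the entry with 620 of its 728 counts, 83 bp lay in a coding exon and the other 843 bp, like the 988 bp of its second entry, in an exon that GENCODE M21 holds only in a retained-intron transcript.

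March6 encodes a ligase of the ER membrane that also acts on enzymes of sterol synthesis. After allogeneic stimulation it was 848, 865 and 885 CPM in PERK-cKO and 849, 963 and 847 CPM in WT T cells. After polyclonal stimulation it was 717, 684 and 649 CPM in PERK-cKO and 589, 635 and 556 CPM in WT T cells. All allogeneic libraries lay above all polyclonal libraries, whichever the genotype. The log2 fold change of allogeneic against polyclonal stimulation was 0.55 (SE 0.0839, edgeR adjusted p = 0.000134) in WT and 0.34 (SE 0.0813, edgeR adjusted p = 0.0018) in PERK-cKO T cells, although the WT value was -0.04 when scaled to T cell markers. Both calls held without any 1 library. Between genotypes March6 was not called, at -0.03 (SE 0.0883, edgeR adjusted p = 0.829) after allogeneic stimulation. After polyclonal stimulation the value was 0.19 (SE 0.082, edgeR adjusted p = 0.0965), with no overlap between the genotypes, or -0.19 when scaled to T cell markers (edgeR adjusted p = 0.0477). The interaction was -0.23, with a 95% interval of -0.48 to 0.01 (edgeR adjusted p = 0.129), but 0.29 when scaled to T cell markers (edgeR adjusted p = 0.0455).

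The gene of p97 itself, Vcp, lay under the entry of its own symbol, which covered 100% of its 4851 bp of exons but also overlay 352 bp of 1700022I11Rik. It was therefore left out of the placed counts, and it is given here as a reading chosen after its values were seen. After polyclonal stimulation the entry was 1066, 965 and 1091 CPM in PERK-cKO and 692, 766 and 664 CPM in WT T cells, with no overlap. PERK-cKO exceeded WT by 0.54 on the log2 scale (SE 0.0848, edgeR adjusted p = 0.000189), and 0.49 to 0.60 without 1 library, with adjusted p of at most 0.00245. After allogeneic stimulation it was 755, 944 and 756 CPM in PERK-cKO and 776, 996 and 776 CPM in WT T cells, and PERK-cKO differed from WT by -0.05 (SE 0.108, 95% interval -0.27 to 0.18, edgeR adjusted p = 0.773). The interaction was -0.61 (SE 0.149, edgeR adjusted p = 0.00283). The entry was lower after allogeneic than after polyclonal stimulation in PERK-cKO T cells, at -0.35 (SE 0.0969, edgeR adjusted p = 0.00586), and was 0.23 (SE 0.103, edgeR adjusted p = 0.0803) in WT T cells, which was called without WT allogeneic replicate 1 (edgeR adjusted p = 0.0445) or 3 (0.0493). Scaled to T cell markers, the polyclonal value was 0.17 and the interaction -0.08, where the median of all genes was -0.38 and 0.54.

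Nploc4 encodes NPL4, which with UFD1 carries ubiquitinated proteins to p97. After polyclonal stimulation it was 196, 199 and 189 CPM in PERK-cKO and 164, 165 and 148 CPM in WT T cells. Every PERK-cKO library was above every WT library, by 0.28 on the log2 scale (SE 0.0927, edgeR adjusted p = 0.0322). The call was held without WT polyclonal replicate 2 alone and lost without any other library (edgeR adjusted p 0.0544 to 0.117). DESeq2 did not call it (0.27, adjusted p = 0.105), nor did edgeR with library size only (0.33, adjusted p = 0.0597). Scaled to T cell markers the value was -0.10. The means of its 3 entries were higher in PERK-cKO T cells by 0.31, 0.61 and 0.10, the first being the entry over the stretch in the last exon. In the same order, only 26.7%, 4.4% and 4.04% of these entries lay inside Nploc4 exons. After allogeneic stimulation Nploc4 was 209, 185 and 188 CPM in PERK-cKO and 187, 202 and 172 CPM in WT T cells, and the difference was 0.06 on the log2 scale (SE 0.108, edgeR adjusted p = 0.722). The interaction was -0.24, with a 95% interval of -0.52 to 0.05. Between stimulations Nploc4 was not called under TMM scaling, at 0.20 (SE 0.0982, edgeR adjusted p = 0.108) in WT and 0.00 (SE 0.1, edgeR adjusted p = 0.972) in PERK-cKO T cells. Scaled to T cell markers, the WT value was -0.39 and was called (edgeR adjusted p = 0.00356).

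Ubxn4 encodes an ER membrane protein that binds p97, also known as erasin. After allogeneic stimulation it was 381, 376 and 369 CPM in PERK-cKO and 316, 273 and 322 CPM in WT T cells. After polyclonal stimulation it was 330, 306 and 310 CPM in PERK-cKO and 247, 213 and 264 CPM in WT T cells. The PERK-cKO libraries lay above the WT libraries after both stimulations. The log2 fold change was 0.31 (SE 0.0953, edgeR adjusted p = 0.0145) after allogeneic and 0.37 (SE 0.0946, edgeR adjusted p = 0.007) after polyclonal stimulation, and -0.01 for the second when scaled to T cell markers. The interaction was -0.08, with a 95% interval of -0.36 to 0.20 (edgeR adjusted p = 0.69), but 0.45 when scaled to T cell markers (edgeR adjusted p = 0.0158). The allogeneic call was lost without WT allogeneic replicate 2 (0.23, edgeR adjusted p = 0.117). Ubxn4 was also higher after allogeneic than after polyclonal stimulation, by 0.30 in WT T cells (SE 0.106, edgeR adjusted p = 0.032) and by 0.25 in PERK-cKO T cells (SE 0.086, edgeR adjusted p = 0.0218). The WT call was lost without WT allogeneic replicate 1 or 3 or WT polyclonal replicate 1 or 2 (edgeR adjusted p 0.0509 to 0.142), and the PERK-cKO call without PERK-cKO polyclonal replicate 2 or 3 (edgeR adjusted p 0.0901 and 0.0937). Both were lost with library size only (edgeR adjusted p 0.0734 and 0.0794), and the PERK-cKO call without a filter (0.0801). Scaled to T cell markers, the WT value was -0.29 and the PERK-cKO value 0.16 (edgeR adjusted p = 0.152). Only 11.2% of the entry lay inside Ubxn4 exons. The entry deposited under the symbol Ubxn4, which overlay no Ubxn4 exon in GRCm38, gave -0.34 after allogeneic and -1.61 after polyclonal stimulation. Between stimulations that entry gave -2.0 in WT and -0.73 in PERK-cKO T cells.

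Faf1 encodes an adaptor that joins p97 to ubiquitinated proteins. It was 19.7, 15.6 and 16.4 CPM in PERK-cKO T cells after allogeneic and 29, 30.4 and 26.7 CPM after polyclonal stimulation. Allogeneic differed from polyclonal stimulation by -0.72 (SE 0.227, edgeR adjusted p = 0.0123), and it was called also without any 1 library. In WT T cells it was 21.3, 17 and 30.1 CPM after allogeneic and 23.6, 26.9 and 26.5 CPM after polyclonal stimulation, which overlapped (-0.19, SE 0.239, edgeR adjusted p = 0.541). Scaled to T cell markers, Faf1 was called in both genotypes, at -0.78 in WT (edgeR adjusted p = 0.0115) and -0.82 in PERK-cKO T cells (0.00617). Between genotypes Faf1 was not called, at -0.40 (SE 0.271, edgeR adjusted p = 0.285) after allogeneic and 0.14 (SE 0.194, edgeR adjusted p = 0.626) after polyclonal stimulation, and the interaction was -0.56 (SE 0.32, edgeR adjusted p = 0.19). Ubxn6, whose product is another p97 cofactor, was called in no comparison under TMM scaling, with group means of 35.6 to 46.3 CPM, and in 3 when scaled to T cell markers (-0.48 after polyclonal stimulation, 0.80 for the interaction and -1.0 in WT T cells).

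Sgta encodes a co-chaperone of the BAG6 system that sorts membrane proteins in the cytosol. It was 12.9, 13.1 and 11.6 CPM in PERK-cKO T cells after allogeneic and 21.5, 17.3 and 25.6 CPM after polyclonal stimulation. All PERK-cKO allogeneic libraries lay below all PERK-cKO polyclonal ones, with a log2 fold change of -0.78 (SE 0.267, edgeR adjusted p = 0.0205). The call was lost without PERK-cKO allogeneic replicate 3 or PERK-cKO polyclonal replicate 3 (edgeR adjusted p 0.0617 and 0.102). In WT T cells it was 10, 9.4 and 20.1 CPM after allogeneic and 22.1, 20.9 and 19.2 CPM after polyclonal stimulation, and the value was -0.66 (SE 0.302, edgeR adjusted p = 0.0883). Scaled to T cell markers, Sgta was called in both genotypes, at -1.25 in WT (edgeR adjusted p = 0.0027) and -0.88 in PERK-cKO T cells (0.0126). Between genotypes Sgta was at -0.09 (SE 0.341, edgeR adjusted p = 0.881) after allogeneic and 0.04 (SE 0.229, edgeR adjusted p = 0.905) after polyclonal stimulation, with an interaction of -0.15 (SE 0.402, edgeR adjusted p = 0.814). The counts were 16 to 50 per library, and 2.43% of the entry lay inside Sgta exons. An entry with 10925 counts over 39.7% of the Sgta exons also overlay Slc39a3, so it was not used.

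Man1a and Man1a2 encode mannosidases of the early secretory pathway that trim mannose from N-glycans, a step of glycan maturation that also takes part in marking misfolded glycoproteins. Under TMM scaling Man1a2 had the widest differences of the 12 genes tested in the polyclonal genotype comparison, the interaction and the WT comparison of stimulations, an order that was lost in all 3 when scaled to T cell markers. Ube2k was then the widest after polyclonal stimulation (-0.77) and in the interaction (1.57), and Sgta in WT T cells (-1.25). It was 29.5, 32.2 and 33.8 CPM in PERK-cKO and 18.9, 13.4 and 15 CPM in WT T cells after polyclonal stimulation. The groups did not overlap, and the log2 fold change was 0.99 (SE 0.22, edgeR adjusted p = 0.0028). After allogeneic stimulation it was 23.6, 23.6 and 28.6 CPM in PERK-cKO and 42.7, 28.8 and 33.2 CPM in WT T cells, with all PERK-cKO libraries below the WT libraries. At -0.47 (SE 0.221, edgeR adjusted p = 0.115) that difference was not called. The interaction was -1.48 (SE 0.301, edgeR adjusted p = 0.000556). In WT T cells Man1a2 was higher after allogeneic than after polyclonal stimulation by 1.11 (SE 0.234, edgeR adjusted p = 0.00163), whereas in PERK-cKO T cells the value was -0.34 (SE 0.204, edgeR adjusted p = 0.175). These 3 calls held without any 1 library, with edgeR adjusted p of at most 0.0132. With T cell marker scaling, the WT value fell to 0.52 and was not called (edgeR adjusted p = 0.0713), whereas the polyclonal value, 0.61 (0.0388), and the interaction, -0.95 (0.0205), were.

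The Man1a2 values rested on 608 counts in all, 27 to 68 per library, of an entry of 291 bp. The 154 bp of exon 10 shown above made up 52.9% of it, so an unknown part of the counts came from outside Man1a2 exons. The entry deposited as Man1a2 held 11449 counts but overlay 328 bp of Man1a2 and 3966 bp of Tent5c, so it was not used. With it, the polyclonal value was 0.21 and the interaction -0.13, neither of them called, whereas the WT difference between stimulations was 1.48 (edgeR adjusted p = 6.93e-10). Man1a was called in no comparison under TMM scaling, with group means of 50.1 to 57.8 CPM, and in 2 when scaled to T cell markers (0.66 for the interaction and -0.56 in WT T cells). Its entry held 1207 counts, of which an unknown part came from the 97 bp that lay inside its exons, since 1.01% of the entry did.

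Between the stimulations, where the day of harvest and the presence of APCs changed as well, 6 of 12 genes were called in WT T cells, all higher after allogeneic stimulation, against 48.6% of 3985 genes called (24.5% higher and 24.1% lower), or 0 higher and 9 lower when scaled to T cell markers, where 68% of all genes were called. They were Man1a2, Ube2j1, March6, Ubxn4, Ube2g1 and Ube2j2. In PERK-cKO T cells 7 of 12 were called, against 51.4% of 4159 genes, with Ube2k, March6, Ubxn4 and Ube2j1 higher (27.7% of all genes were) and Sgta, Faf1 and Ube2j2 lower (23.8% of all genes were), or 1 higher and 3 lower when scaled to T cell markers, where 51.3% of all genes were. Their medians were 0.22 in WT and 0.07 in PERK-cKO T cells, against -0.02 and 0.00 for all genes. March6, Ubxn4 and Ube2j1 were higher in both genotypes. Without WT polyclonal replicate 1, the library that stood apart, 3 genes were called in WT T cells (Man1a2, Ube2j1 and March6) and 41.6% of all genes. Without PERK-cKO polyclonal replicate 3, 2 were called in PERK-cKO T cells, and without replicate 2, 4, against 45.5% and 45.9% of all genes. In WT T cells Y-linked counts, at 3335 to 4716 per library after allogeneic and 0 after polyclonal stimulation, changed with the stimulation as well, so sex cannot be told apart from it. Summed basophil and mast cell markers were 120 to 133 against 1.04 to 2.49 CPM between the stimulations in WT and 2612 to 2804 against 16.3 to 23.8 CPM in PERK-cKO T cells, and their part in these calls was not tested.

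**Figure D4:**
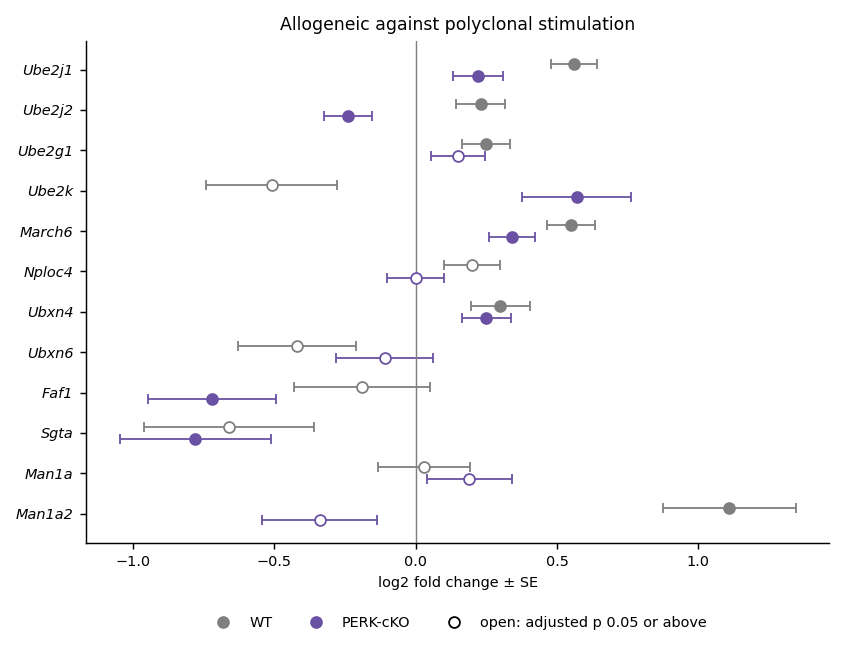
The log2 fold change of allogeneic against polyclonal stimulation is shown with its SE for 12 genes in WT and in PERK-cKO T cells, with filled points where the adjusted p was under 0.05. Under TMM scaling the filled WT points all lie above 0 (all of them but that of Man1a2 fall below 0 when scaled to T cell markers), and the filled PERK-cKO points of Sgta, Faf1 and Ube2j2 lie below 0.

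In the allogeneic comparison of genotypes, where the macrophage, basophil, B cell and dendritic cell markers were higher in PERK-cKO libraries and the WT libraries alone held Y-linked counts, the part of those differences in the values of Ube2k and Ubxn4 was not tested. After polyclonal stimulation Ubxn4 differed by 0.37 and Ube2k by -0.39. There Y-linked counts were 0 in all 6 libraries, and the basophil and mast cell markers, though at most 23.8 CPM, were again higher in every PERK-cKO than in every WT library. Their part in the polyclonal values was not tested either. Without WT allogeneic replicate 2, edgeR called 0 of the 12 genes in the allogeneic comparison (3 at an unadjusted p under 0.05), and without PERK-cKO allogeneic replicate 1, 1 was, where 26.4% and 29% of all genes were called.

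Other genes of the same pathways gave the setting. Of the 10 ERAD genes of the study's heatmap, which the study chose on these samples and which are no independent evidence, 5 were tested, and 2 were called higher in allogeneic PERK-cKO T cells (1 by DESeq2), where 18.5% of all genes were. After polyclonal stimulation edgeR called 0 of them (0 at an unadjusted p under 0.05 and 0 by DESeq2). Of 26 further ERAD and p97 genes, 11 were tested in each of these comparisons. After allogeneic stimulation 3 were called (2 by DESeq2), all lower, and after polyclonal stimulation 2 were called higher and 1 lower (2 in all by DESeq2), against 33% and 31.8% of all genes called in either direction. Of 15 UPR genes, 4 were tested, and 3 were called higher and 1 lower after allogeneic stimulation (18.5% and 14.5% of all genes were), the lower being Eif2ak3 (-0.49, SE 0.137, edgeR adjusted p = 0.00759). After polyclonal stimulation 1 was called, and Eif2ak3 was -0.36 (SE 0.19, edgeR adjusted p = 0.171).

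Rad23b, whose product carries ubiquitinated proteins to the proteasome, was singled out among the further genes after its values were seen. It was lower in PERK-cKO than in WT T cells after allogeneic stimulation, at -0.27 (SE 0.0969, edgeR adjusted p = 0.0377), and higher after polyclonal stimulation, at 0.40 (SE 0.0806, edgeR adjusted p = 0.00142). Its interaction was -0.68 (SE 0.124, edgeR adjusted p = 0.000168). Rad23b was read under TMM scaling only, and not with libraries left out. Scaled to T cell markers, the median of all genes was 0.11 after allogeneic and -0.38 after polyclonal stimulation and 0.54 for the interaction. Between stimulations in PERK-cKO T cells, where 51.4% of all genes were called, 2 of 5 heatmap genes were called (1 by DESeq2), both higher after allogeneic stimulation (Edem1 at 1.09 and Os9 at 0.28). Of the 4 UPR genes, 3 were called higher (2 by DESeq2), Eif2ak3 at 0.54, Pdia4 at 0.41 and Ppp1r15a at 0.42, and 3 of 11 further genes were called lower (3 by DESeq2). Of those, Nsfl1c, which encodes the p97 cofactor p47, was at -0.74, Ubxn7 at -0.92 and the shuttle factor gene Ubqln4 at -1.04, and all 8 had an edgeR adjusted p of at most 0.034. In WT T cells, where 48.6% of all genes were called, Edem1 (0.72) was called higher and Sel1l (-0.44) lower among the 5 heatmap genes. Of 10 further genes, Rad23b (0.51), Tmub1 (0.56) and Ubxn2b (0.58) were called, and of the 4 UPR genes Eif2ak3 (0.66), Pdia4 (0.26) and Atf6 (-0.60), all 8 with an edgeR adjusted p of at most 0.0127, and DESeq2 called 2, 3 and 3 genes of the lists. The log2 values of these lists were read under TMM scaling only. Between stimulations, the median of all genes scaled to T cell markers was -0.60 in WT and -0.09 in PERK-cKO T cells.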

How the data were processed

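The data are 12 bulk RNA-Seq libraries of splenic T cells, with 3 per combination of genotype (WT, PERK-cKO) and stimulation (allogeneic, polyclonal), grouped by their labels. The authors deposited raw counts of read pairs per gene symbol, made with featureCounts 2.0.1 on exons of GENCODE M27 (GRCm39) without use of strand, per the file headers, whereas the submitters' processing notes name mm10 (GRCm38). The aligner is not given in the sources used here. Many deposited symbols are therefore not at the place of their gene. Exon positions were read as printed, overlaid on GENCODE M21 (GRCm38) with bedtools 2.31.1 and Python 3.11.15, and an entry was placed where it overlay 50 bp or more of a single gene's exons (small RNA genes ignored), with entries summed by gene (13386 of 53762 entries). No position was converted. Reads of overlapping or antisense genes were not told apart.

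Placed counts, 1568431 to 2327503 per library, were filtered by filterByExpr with its defaults, scaled by TMM and tested with edgeR 4.0.16 (R 4.3.3; glmQLFit, glmQLFTest), with Benjamini-Hochberg adjustment over all genes tested and a threshold of 0.05. Each comparison of genotypes or stimulations used its 6 libraries and the interaction all 12. CPM are counts per 1000000 placed counts, scaled by TMM over all libraries. Intervals are 95% intervals from the fit. The scripts were tested on simulated counts. DESeq2 1.42.0, which the study names, other scalings, filters and placements, a replicate block and each library left out were alternatives. Reading Vcp was added after seeing the data. The list of genes, the context lists and the cell type markers were chosen with earlier results of these data known. Every listed gene with 10 or more placed counts is described, and those called in at least 1 comparison are given with all values. Chi-square tests between replicates found no duplicated library.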

Additional observations from a re-analysis of the deposited data

Results flagged for a closer look

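For 4 genes the difference between PERK-cKO and WT libraries changed with the stimulation by the interaction test in edgeR under TMM scaling. The log2 interaction, the allogeneic less the polyclonal difference between PERK-cKO and WT, was -1.48 for Man1a2, -0.50 for Ube2j2, -0.37 for Ube2j1 and 1.05 for Ube2k. In this test 33.9% of all genes were called. DESeq2 called 3 of the 4, with Ube2j1 at an adjusted p of 0.0525, and Ube2j1 was also lost in edgeR with RLE size factors (0.0506), with library size only (0.0671), with 10 counts required in every library (0.088) and without 7 of the 12 libraries, each left out alone. Under T cell marker scaling, Ube2j1 (0.16) and Ube2j2 (0.02) reversed and were not called, whereas Man1a2 (-0.95) and Ube2k (1.57) were. With that scaling 5 further genes were called, where 42.1% of all genes were. With entries as listed, Man1a2 was -0.13 (edgeR adjusted p = 0.52) and Ube2j2 0.12 (edgeR adjusted p = 0.494). The entry listed as Ube2j2 overlay no Ube2j2 exon in GRCm38. The stimulations also differed in the presence of APCs and, per the labels, in the day of harvest, and the WT allogeneic libraries alone held Y-linked counts. These cannot be told apart from the stimulation. Summed basophil and mast cell markers were 2612 to 2804 CPM in PERK-cKO and 120 to 133 CPM in WT allogeneic libraries, and the macrophage markers 854 to 1064 against 45.3 to 60.8 CPM. Their part in the interaction was not tested.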

How the results depend on the processing

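The main counts of genes called were 2 for PERK-cKO against WT after allogeneic stimulation, 4 after polyclonal stimulation, 4 for the interaction, and 6 in WT and 7 in PERK-cKO T cells between stimulations. With entries at least 50% inside the exons, which left 4 of the 12 genes to test, they were 0, 1, 2, 3 and 1, against 36.5%, 33.6%, 34.6%, 54.8% and 56.1% of all genes. With entries as listed under the deposited symbols, they were 1 of 8, 2 of 6, 1 of 7, 5 of 6 and 7 of 8 genes tested. The shares of all genes were then 28.9%, 29.5%, 29%, 46.6% and 46.2%. Such entries need not lie over their gene. Scaled to T cell markers, the interaction count was 7 and the PERK-cKO count 4, against 42.1% and 51.3%. DESeq2 called 2, 3, 3, 4 and 6, against 28.8%, 26.5%, 31.8%, 43.1% and 46.3%. With library size only the counts were 2, 3, 3, 3 and 5, against 31.7%, 28.8%, 31.4%, 45.7% and 51.6%. Tested beyond a log2 fold change of 1, edgeR's glmTreat called 0 in all 5, against 2.67% to 13% of all genes, with 1 gene at an unadjusted p under 0.05, in the interaction. Without 1 library each in turn the counts ranged from 0 to 2, 3 to 4, 3 to 4, 3 to 6 and 2 to 6, against 26.4% to 30.1%, 24.1% to 28.6%, 29.5% to 31.4%, 41.6% to 45.2% and 45.5% to 48.5%. With the Vcp entry read, chosen after seeing the data, 13 genes were tested. The counts were then 2, 5, 5, 6 and 8, against 33%, 31.8%, 33.9%, 48.6% and 51.5% of all genes. Scaled to T cell markers, 9 of 23 values of called genes were still called in the same direction and 9 reversed. With entries as listed these were 6 and 7 of 16. With each library left out, 122 of 162 values were still called. Under the remaining settings 168 of 212 values were still called and 0 reversed. That last tally holds the Vcp fit, which adds only 1 gene, and leaves out genes not tested under a setting.

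As listed, values reversed for Ubxn4 (-0.34 after allogeneic and -1.61 after polyclonal stimulation, -2.0 in WT, -0.73 in PERK-cKO T cells) and Ube2j2 (-0.24 after polyclonal stimulation, 0.12 for the interaction, -0.52 in WT). Those entries overlay no exon of either gene in GRCm38. Scaled to T cell markers, values reversed after polyclonal stimulation for Nploc4 (-0.10) and Ubxn4 (-0.01), in the interaction for Ube2j1 (0.16) and Ube2j2 (0.02), and in WT for March6 (-0.04), Ube2g1 (-0.34), Ube2j1 (-0.03), Ube2j2 (-0.35) and Ubxn4 (-0.29). Under that scaling the share of all called genes that was higher was 72.8%, 6.97%, 90.7%, 11.1% and 46.3% over the 5 comparisons.

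Fitted with the replicate number as a block, 2, 4, 4, 6 and 6 genes were called, against 32.9%, 30.5%, 32.8%, 49.2% and 48.8% of all genes. The numbers did not pair the samples: deviations of same-numbered libraries correlated at -0.0982 to 0.098. With 16 to 97 counts per library, Ube2k, Faf1, Sgta and Man1a2 had SEs of 0.193 to 0.341 in the 4 comparisons of 2 groups, against 0.0806 to 0.106 for Ube2j1, Ube2j2, Ubxn4, March6 and Ube2g1. In the interaction the SEs were 0.298 to 0.402 against 0.116 to 0.133.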
